A study of Mus musculus with 2 samples.

Results

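The genes described here are Trp53, which encodes the tumour suppressor p53, 3 of the genes p53 is known to activate (Mdm2, Ccng1 and Bax) and 6 genes for inhibitors of cyclin-dependent kinases (CDKs), of which Cdkn1a is also a p53 target. They were chosen by name, and the choice used no threshold on their values. They are 10 genes, of which 8 are among the 12393 that have a probe set of their own on the array. Expression was measured in LM8, a mouse osteosarcoma line that spreads to the lung, on 2 Affymetrix arrays of total RNA. One array held a stable clone transfected with full-length human PHD4 cDNA in pcDNA3.1 (the hPHD4 clone), and the other held a clone that received pcDNA3.1 with no insert (the control clone). Both clones were selected with G418 at 0.5 mg/ml. PHD4 is a prolyl hydroxylase of the endoplasmic reticulum membrane, and P4htm is its mouse gene.

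Each group was 1 clone on 1 array, so nothing was replicated or tested, and a difference between the arrays cannot be told apart from a difference between any 2 clones or cultures. The introduced human gene was not followed, because the probe sets are annotated to mouse genes. Mouse P4htm could not be followed either, with 0 probe sets annotated to it alone. In both clones all 5 osteoblast markers with a probe set of their own (Col1a1, Col1a2, Sp7, Alpl and Ibsp) lay above the floor defined below, while 0 of 5 epithelial markers, 1 of 5 leukocyte markers (Cd68), 1 of 4 endothelial markers (Kdr) and 2 of 4 muscle markers (Des and Acta2) did. Among these markers Acta2, for smooth muscle actin, was 2.82-fold lower in the hPHD4 clone on its 1 measured probe set. Ibsp, for bone sialoprotein, was 2.13-fold higher. Both differences were larger than that of Cdkn1a given below, but this did not hold throughout. The 2 Ibsp probe sets were at log2 ratios of 0.61 and 1.56, beside −0.97 for Cdkn1a. With dim signals raised to a common floor Acta2 was at −0.75, and with _x_at and _s_at probe sets left out it had no value.

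p53 is a transcription factor that is stabilised by DNA damage and other stress. It switches on genes that halt the cell cycle, among them Cdkn1a, and genes that promote cell death, among them Bax. It also switches on Mdm2, whose product sends p53 to degradation, so that the pair forms a feedback loop. The CDK inhibitors fall into 2 families. The Cip/Kip proteins p21, p27 and p57, from Cdkn1a, Cdkn1b and Cdkn1c, bind complexes of cyclins with several CDKs. The INK4 proteins, from Cdkn2a, Cdkn2b and Cdkn2c, bind CDK4 and CDK6 and keep the retinoblastoma protein active. Cdkn2a also encodes Arf, which inhibits Mdm2 and so ties the INK4 locus to p53. Trp53 and the locus of Cdkn2a and Cdkn2b are often lost in osteosarcoma.

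The sequences that follow show matches to a p53 half-site motif before the start sites of Cdkn1a, Mdm2 and Ccng1. These are the p53 targets with values among the 10 genes. The sequences come from RefSeq, assembly GRCm38.p6, and are printed on the strand of the gene. Windows were found for 9 of the 10 genes, all but Cdkn1c. The 250 bases before each annotated start were searched for the p53 half-site consensus, a palindromic motif of 10 bases that reads alike on both strands. Capitals mark exact matches to this motif, and near matches were left in lower case. A match need not be a site that p53 is known to use. The first sequence is the whole stretch before the first Cdkn1a start, and the other two are the 60 bases around the match of Mdm2 and of Ccng1.
Cdkn1a, chr17:29090729-29090978, plus strand: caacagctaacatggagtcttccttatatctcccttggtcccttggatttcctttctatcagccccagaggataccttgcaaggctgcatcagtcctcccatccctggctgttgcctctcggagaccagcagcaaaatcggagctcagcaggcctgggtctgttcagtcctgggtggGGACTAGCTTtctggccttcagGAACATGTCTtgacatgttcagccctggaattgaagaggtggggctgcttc
Mdm2, chr10:117710910-117710969, minus strand: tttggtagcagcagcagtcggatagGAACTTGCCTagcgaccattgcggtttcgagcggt
Ccng1, chr11:40755437-40755496, minus strand: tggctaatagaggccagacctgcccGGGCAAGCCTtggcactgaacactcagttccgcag
The Cdkn1a stretch held 2 matches, which begin 73 and 51 bases before the start and do not overlap. Mdm2 and Ccng1 held 1 each, beginning 186 and 185 bases before the start. Trp53 and Bax also held 1 match each. The windows of Cdkn1b, Cdkn2a, Cdkn2b and Cdkn2c held none, nor did the second annotated start of Cdkn1a. Of all 32851 windows of the same length, 7.13% held at least 1 match and 0.259% held 2 or more. A match describes these letters and says nothing of whether p53 was bound in either clone.

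Of the 10 genes, 8 had at least 1 probe set annotated to the symbol alone, 13 probe sets in all. For Trp53 and Bax there were 0 such probe sets in the annotation used here, so the levels of p53 and of its death-promoting target were not analysed. The values are log2 MAS5 signals. A floor was set at the 40th percentile of the signals on an array, which was 6.34 for the hPHD4 clone against 6.08 for the control clone (log2). A probe set above both floors counted as measured, and the ratio of a gene was the mean log2 difference, hPHD4 clone minus control clone, over its measured probe sets. In all 10 of the 13 probe sets, from 6 genes, were measured. The other 3 lay under both floors, and with them Cdkn1c and Cdkn2a had no ratio. Across the array, 60.1% of genes had a measured probe set.

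**Figure D1:**
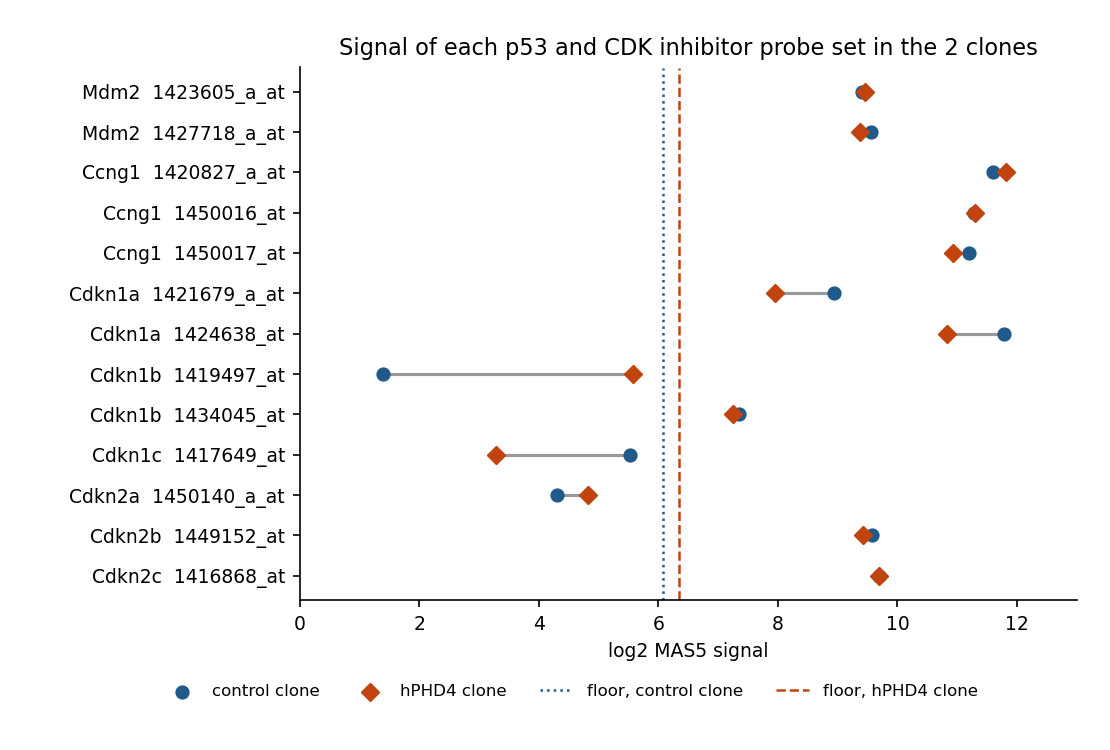
Log2 MAS5 signal (x axis) of the 13 probe sets of the p53 target and CDK inhibitor genes (y axis) in the control clone (circles) and the hPHD4 clone (diamonds), with the floor of each array as a vertical line. Both Cdkn1a probe sets lie to the left in the hPHD4 clone, at log2 ratios of −0.99 and −0.95, and the 3 probe sets under both floors belong to Cdkn1b, Cdkn1c and Cdkn2a.

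Cdkn1a was the only one of the 6 measured genes at least 1.5-fold apart between the clones, and it was lower in the hPHD4 clone. The other 5 (Mdm2, Ccng1, Cdkn1b, Cdkn2b and Cdkn2c) lay within 0.2 of 0 on the log2 scale, where 42.4% of all measured genes lay. So 1 of 6 was at least 1.5-fold lower, against 5.22% of the 7452 measured genes, and 0 of 6 were at least 1.5-fold higher, against 8.94%. The median log2 ratio of the 6 was −0.09, beside 0.03 for all measured genes. Of the 10 measured probe sets 4 lay above 0 and 6 below.

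Cdkn1a encodes p21, the inhibitor through which p53 arrests the cycle in G1. Its probe set 1424638_at had a linear signal of 1826 in the hPHD4 clone against 3535 in the control clone, and 1421679_a_at had 247.6 and 490.8. Both were lower in the hPHD4 clone, at log2 ratios of −0.95 and −0.99. The gene's ratio was −0.97, which is 1.96-fold lower and just short of 2-fold; 0.98% of measured genes were at least 2-fold lower. For measured probe sets of one gene, the SD of log2 ratios was 0.28 in the brightest of 3 equal groups of genes, to which Cdkn1a belongs, and the 2 probe sets of Cdkn1a had an SD of 0.02. This spread stands in for replicate error, but it covers probe set error alone and tells nothing of how clones, cultures or labelling reactions vary. By its ratio Cdkn1a was 79th from the lowest of the 7452 measured genes. Among the 2800 genes with at least 2 measured probe sets, every probe set was at least 1.5-fold lower in 32 (1.14%), and Cdkn1a was one of them.

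Cdkn1a lies on chromosome 17, where more genes were lower in the hPHD4 clone than over the whole array. The median log2 ratio of its 373 measured genes was −0.17, and 13.4% of them were at least 1.5-fold lower, beside 5.22% of all measured genes. Cdkn1a was 11th from the lowest of these 373. The 10 nearest measured neighbours had a median of −0.17 and ran from −0.54 for BC004004, the next gene on one side, to 0.03 for Srpk1. None of the 10 was at least 1.5-fold lower, and Cdkn1a lay below all of them. Srsf3, the next gene on the other side, was at 0.01. With the chromosome median subtracted, the ratio of Cdkn1a was −0.80, which is 1.74-fold lower and the 148th lowest of all measured genes.

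**Figure D2:**
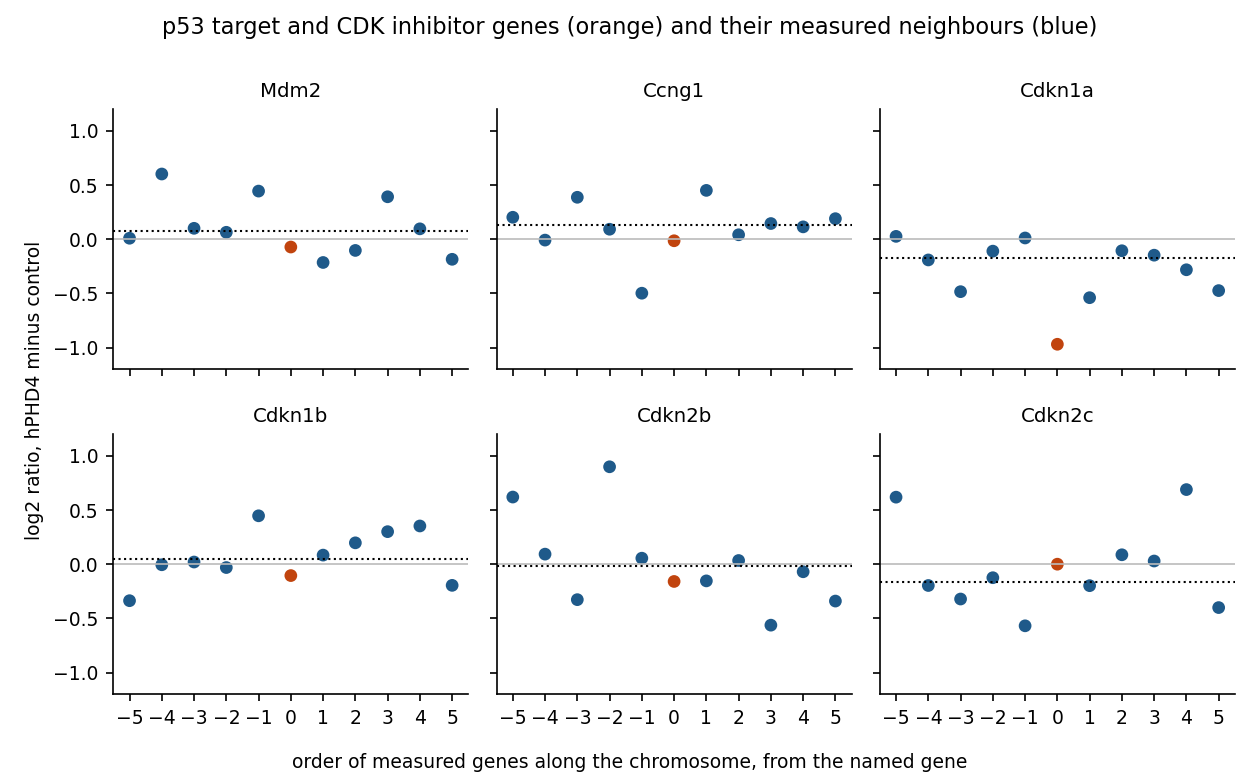
Log2 ratio, hPHD4 clone minus control clone (y axis), of 6 measured genes (orange) and the 5 nearest measured genes on each side (blue) by their order on the chromosome (x axis), with the median of the neighbours dotted. Cdkn1a, at −0.97, lies below its 10 neighbours, while the other 5 genes lie within the range of theirs.

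Mdm2 and Ccng1, the other p53 targets with values, showed no such difference. Mdm2 encodes the ubiquitin ligase that degrades p53. Its probe set 1423605_a_at had linear signals of 703 in the hPHD4 clone against 683 in the control clone, and 1427718_a_at had 667 and 758. These log2 ratios, 0.04 and −0.19, lay on opposite sides of 0, and their mean was −0.07 with an SD of 0.16. Ccng1 encodes cyclin G1, which recruits a phosphatase to Mdm2. Its 3 probe sets had linear signals of 3590, 2528 and 1944 in the hPHD4 clone, against 3114, 2491 and 2344 in the control clone. One was higher in the hPHD4 clone, one lower and one nearly level, at log2 ratios of 0.21, −0.27 and 0.02. The gene's ratio was −0.01, with an SD of 0.24 between its probe sets. For both genes the ratio was smaller than that SD and than the 0.28 of genes of their brightness. So of these 3 p53 targets, each with a half-site match before at least 1 annotated start, 1 was lower in the hPHD4 clone and 2 differed by less than the spread between probe sets.

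Among the other Cip/Kip genes, Cdkn1b, which encodes p27, was measured on 1 of its 2 probe sets. Probe set 1434045_at had linear signals of 152.2 in the hPHD4 clone against 163.7 in the control clone, a log2 ratio of −0.11, which is within the SD of 0.40 for dim genes. The other, 1419497_at, lay under both floors at 47.6 and 2.64, an 18.0-fold gap that no count here uses. Cdkn1c, the imprinted gene for p57, had its only probe set, 1417649_at, under both floors at 9.76 in the hPHD4 clone against 45.9 in the control clone. Of the 7004 probe sets under both floors, 64.4% were at least 1.5-fold apart, and 1.04% were as far apart as the dim one of Cdkn1b. No direction was read from them.

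The INK4 genes with a ratio were close to level. Cdkn2b, which encodes p15, had linear signals of 685 in the hPHD4 clone against 765 in the control clone, a log2 ratio of −0.16. Cdkn2c, which encodes p18, had 827 and 826, a ratio of 0.00. Both ratios were smaller than the SD of 0.28 for genes of their brightness, and each rested on 1 probe set. Cdkn2a, which encodes p16 and Arf, lay under both floors, at 28.4 in the hPHD4 clone against 19.8 in the control clone. Were the floor set at the 20th percentile, this probe set would lie just above it in both clones, at a log2 ratio of 0.52. A signal under the floor is not a measure of absence, and 1 probe set does not separate the p16 and Arf transcripts.

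The signals along the Cdkn2a and Cdkn2b locus of chromosome 4 alternated between measured and dim genes. Mtap, a gene of methionine salvage beside Cdkn2a, lay above the floors on all 4 of its probe sets, with linear signals from 484 to 816 in the hPHD4 clone against 336 to 904 in the control clone. Its probe sets had log2 ratios between −0.26 and 0.53. Cdkn2b, on the other side of Cdkn2a, was above both floors as well. Farther out, the interferon genes Ifna1 and Ifna4 and the gene Zfp352 lay under the floors in both clones. Elavl2 had 4 of its 5 probe sets under both floors and 1 above the floor of the control clone alone. Caap1 lay above the floors, at 137.3 and 152.8. Cdkn2a was thus dim between a pair of genes measured in both clones. The 10 measured neighbours of Cdkn2b had a median log2 ratio of −0.02 and ran from −0.56 to 0.90. For Trp53 and Bax, which had no probe set, the 10 nearest measured neighbours had median ratios of 0.24 and 0.17. They ran from −0.48 to 0.99 for Trp53 and from −0.33 to 0.74 for Bax. The medians of their chromosomes, 11 and 7, were 0.07 and 0.19. At least 1.5-fold higher were 2 neighbours of Cdkn2b, 2 of Trp53 and 1 of Bax, beside 8.94% of all measured genes, and 0 were as much lower.

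**Figure D3:**
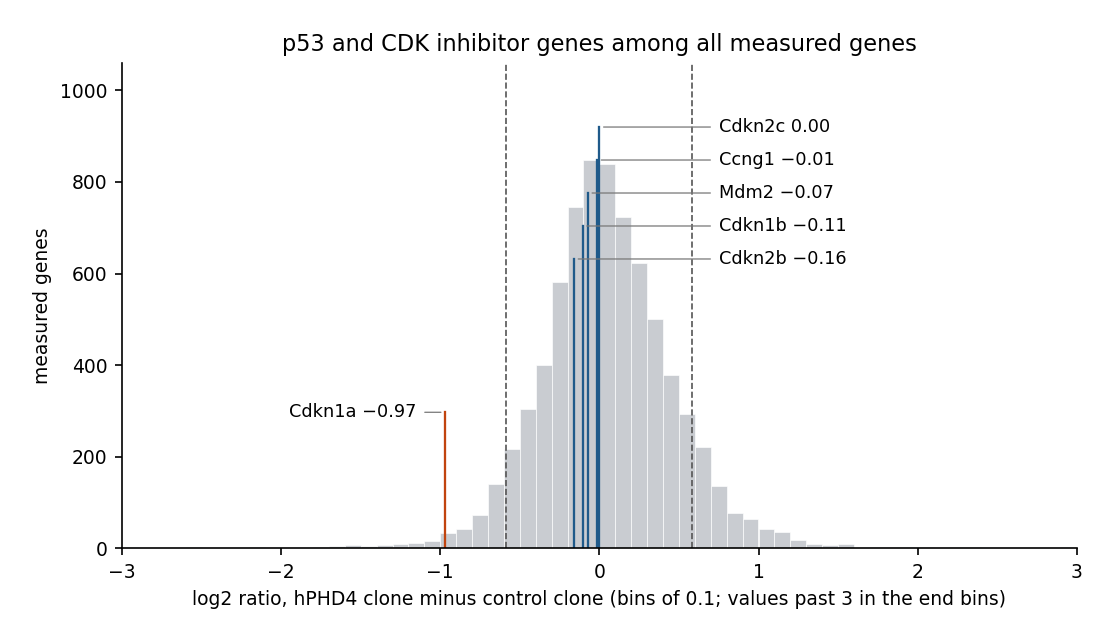
Number of measured genes (y axis) by log2 ratio, hPHD4 clone minus control clone, in bins of 0.1 (x axis), with the 6 measured p53 target and CDK inhibitor genes as vertical lines whose height has no meaning. Dashed lines mark 1.5-fold, and only Cdkn1a, at −0.97, lies past one of them.

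Among further p53 target genes, on a list without the 10 genes above, Xpc, Dram1 and Zmat3 lay lower in the hPHD4 clone by 1.5-fold or more, and none lay as much higher. Of 28 with a probe set 20 were measured, and 13 of these were below 0 and 7 above, where 53.6% of all measured genes were above 0. The median log2 ratio was −0.11, beside 0.03 for all measured genes. This median was −0.24 when the arrays were quantile normalized, −0.23 when loess corrected, −0.21 with chromosome medians subtracted and 0.00 with dim signals raised to a common floor. Past 1.5-fold lay 3 of the 20 on the lower side, beside 5.22% of all measured genes, and 0 on the higher, beside 8.94%. Xpc, a damage sensor of nucleotide excision repair, had a ratio of −0.82, with linear signals of 92.9 in the hPHD4 clone, near its floor of 81.1, against 164.1 in the control clone. Dram1, a lysosomal regulator of autophagy, had −0.80 (129.4 and 225.3), and the zinc finger gene Zmat3 had −0.73 (589 and 976). Each had 1 probe set. The death genes Bbc3 and Apaf1 were at −0.35 and −0.18, and the stress gene Gadd45a at −0.09. At the other end lay Ppm1d, a phosphatase that switches p53 off, at 0.48, Steap3 at 0.37 and Sesn1 at 0.34. Pmaip1, Perp, Fas and Tnfrsf10b were among the 8 genes with a probe set but no measured one.

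Genes that regulate p53 were measured in 13 of 14 cases with 0 at least 1.5-fold higher and 0 lower, beside 8.94% and 5.22% of all measured genes, and their median log2 ratio was −0.09. With the brightest probe set per gene or a 20th percentile floor 1 was at least 1.5-fold higher, and with the median of all genes set to 0 there was 1 lower. The lowest was the ubiquitin ligase gene Rchy1 at −0.57 and the highest Trp53bp1, of the DNA damage response, at 0.52. The 2 probe sets of Trp53bp1, at 0.21 and 0.83, had an SD of 0.44 against 0.37 for genes of their brightness. The kinase genes Atm, Atr and Chek1, which signal damage to p53, lay at −0.09, −0.19 and 0.05, and Chek2 at −0.46. Mdm4, a relative of Mdm2, had a ratio of 0.20. Trp63 and Trp73, the relatives of p53, had 0 measured probe sets.

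Of 9 measured genes for the cyclins and CDKs that the inhibitors bind, 1 was at least 1.5-fold lower and 0 higher, beside 5.22% and 8.94% of all measured genes, with a median log2 ratio of −0.07. The lower one was Ccnd3, for cyclin D3, at −0.67, with linear signals of 931 in the hPHD4 clone against 1485 in the control clone. Ccnd3 also lies on chromosome 17, and with the chromosome median subtracted its ratio was −0.51, short of 1.5-fold. Ccnd2 and Ccnd1, for the other D-type cyclins, were at 0.49 and 0.26, and the brightest probe set of Ccnd2 was at 0.83. With the brightest probe set per gene, or with _x_at and _s_at probe sets left out, 1 gene of the list was at least 1.5-fold higher. Cdk4 and Cdk2 lay at −0.11 and 0.03, and Cdk6 was not measured. Cdkn2d, the remaining INK4 gene, had a ratio of 0.24. Skp2 and Cks1b, which mark p27 for degradation, were at −0.28 and −0.11. They belong to a list drawn up for p27 turnover, and being listed does not show that a gene acts on p27. All 5 measured genes of this list were within 1.5-fold on the mean of their probe sets. The highest was Fbxw7 at 0.30, with its 2 probe sets at 0.01 and 0.59, so that 1 of the 5 was at least 1.5-fold higher with the 60th percentile floor, with the brightest probe set or with _x_at and _s_at probe sets left out.

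**Figure D4:**
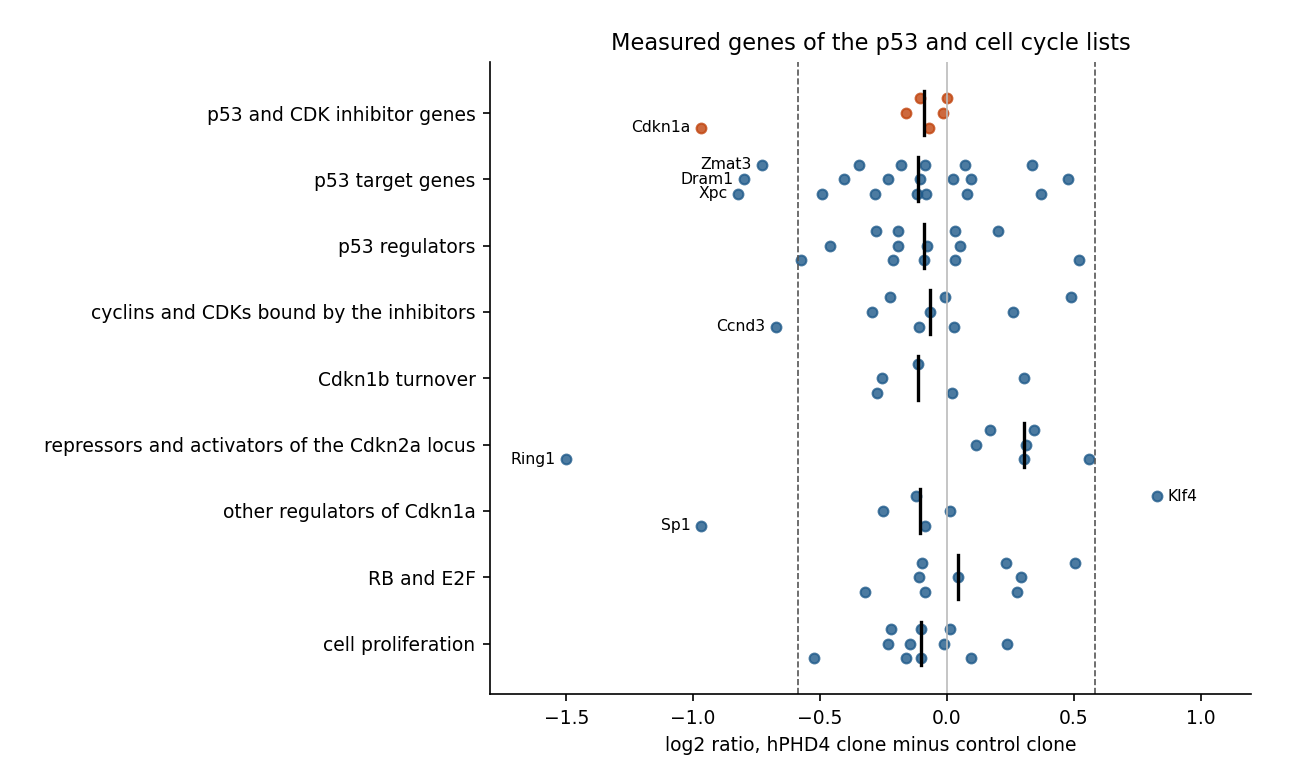
Log2 ratio, hPHD4 clone minus control clone (x axis), of each measured gene (points) in 9 gene lists (y axis), with list medians as black bars, 1.5-fold as dashed lines and genes past it named. Cdkn1a and Sp1, on separate lists, both lie at −0.97, and Ring1 is the lowest point at −1.50.

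Regulators of the inhibitor genes held values on both sides. Of 6 measured regulators of Cdkn1a other than p53, 1 was at least 1.5-fold lower and 1 higher, beside 5.22% and 8.94% of measured genes. The median log2 ratio of the 6 was −0.10, beside 0.03 for all measured genes. The lower one was Sp1, a factor that binds GC-rich promoters. It was 1.96-fold lower in the hPHD4 clone at a log2 ratio of −0.97, with its 2 probe sets at −0.98 and −0.95. Klf4, which can activate Cdkn1a, was at 0.83, but its 2 probe sets, at 0.24 and 1.42, differed with an SD of 0.84, where genes of like brightness had 0.37. Myc, a repressor of Cdkn1a, was at −0.25, and Foxo3, Zbtb17 and Foxo1 were at −0.12, −0.08 and 0.01. Of 7 measured regulators of the Cdkn2a locus, 6 lay above 0, beside 53.6% of all measured genes, and the median was 0.30. It was 0.12 when the arrays were quantile normalized, 0.13 when loess corrected, 0.14 with dim signals raised to a common floor, 0.17 with the brightest probe set and 0.20 with chromosome medians subtracted. These included the Polycomb genes Bmi1 at 0.31, Rnf2 at 0.30 and Ezh2 at 0.12, all within 1.5-fold. Ring1, another Polycomb gene, was 2.83-fold lower on its 1 probe set. Its linear signals were 109.3 in the hPHD4 clone, near the floor of 81.1, against 309.5 in the control clone. The SD was 0.40 for genes as dim as Ring1. With the 60th percentile floor Ring1 had no value, and 0 genes of this list were at least 1.5-fold lower. Ring1 lies on chromosome 17 as well, and its ratio of −1.50 became −1.33 with the chromosome median subtracted.

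Genes listed as imprinted neighbours of Cdkn1c on chromosome 7 were also largely dim. Of 8 with a probe set 3 were measured, beside 60.1% of genes with a probe set over the array. Phlda2, Slc22a18, Kcnq1, Ascl2 and Igf2 were not measured. Of the 3, 1 was at least 1.5-fold higher and 0 lower, beside 8.94% and 5.22% of all measured genes. The higher one was Tssc4, at a log2 ratio of 0.67 on its 1 probe set. The SD was 0.37 for genes of its brightness. Nap1l4 and Cd81 were at 0.16 and 0.02. The median of all measured genes of chromosome 7 was 0.19, and with it subtracted Tssc4 was at 0.48, short of 1.5-fold.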

How the data were processed

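The labels give 2 samples, 1 per clone, from 5 µg of total RNA each. The authors deposited a log2 signal for each probe set. Per the submitters' processing notes it came from MAS5, with neither version nor settings stated in the sources used here. From the values the log base was found to be 2: as powers of 2, both arrays had a mean of 500.2 after the highest and lowest 2% were trimmed. The floor stands in for detection calls, which were not used here. Of 22690 probe sets 64 were controls, 20380 had 1 gene symbol, 691 several and 1555 none. A gene took probe sets of 1 symbol only. Chromosomes and gene order came from a RefSeq gene table (GRCm38.p6), matched by gene number for 20349 probe sets.

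No scaling was added. With 1 array per group no test was made, and the number of arrays limits the precision. The 10 genes were named in full, and of each list at most the 3 highest and 3 lowest past 1.5-fold, with others named for their role after their values were seen. The genes and lists were chosen with earlier results of these data known. Alternatives covered scaling, floor, filter, probe set choice, fold and chromosome. The steps were tested on simulated data (Python 3.11.15, pandas 2.3.3, statsmodels 0.14.6).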

Additional observations from a re-analysis of the deposited data

How the results depend on the processing

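The 6 genes kept their values within the spread between probe sets under every alternative that gave one. Cdkn1a came nearest to 0, at −0.80, with the chromosome median subtracted, and just reached 2-fold lower with the median ratio of all genes set to 0. It was the 1 gene at least 1.5-fold lower under all 9 alternatives that kept this threshold, and with a 2-fold threshold as the one change 0 of the 6 were. Over the whole array the 1.5-fold counts were 666 higher and 389 lower, and they became 1579 and 638 with a 20th percentile floor, 251 and 244 with a 60th percentile floor, and 141 and 73 at 2-fold. The lower share of calls was 36.9%, against 49.1% after quantile normalization, 49.2% after loess correction and 49.3% with the 60th percentile floor. Klf4 was at 0.24 with that floor or with its brightest probe set. Of the 3 lower p53 targets 1, Zmat3, was left with that floor, under which Xpc and Dram1 had no value. No paired analysis was possible because each group has 1 sample.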

Other observations

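The retinoblastoma and E2F families act downstream of the CDK inhibitors. Of their 9 measured genes, 0 were at least 1.5-fold higher or lower, beside 8.94% and 5.22% of all measured genes. There was 1 lower gene with the 60th percentile floor, and 1 if only the brightest probe set of a gene was used. The median log2 ratio was 0.04, and it was −0.05 when the arrays were quantile normalized, −0.04 when loess corrected and −0.10 with chromosome medians subtracted. Rb1 itself was at 0.04, and Rbl1 and Rbl2, for its relatives p107 and p130, were at −0.09 and −0.32. E2f1, E2f3, E2f4 and E2f6 lay at 0.28, 0.29, 0.23 and 0.50, and E2f5 and Tfdp1 at −0.10 and −0.11. The 2 probe sets of Rbl2, at −0.69 and 0.05, had an SD of 0.52 against 0.37 for genes of their brightness.

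Of 11 measured genes of DNA replication and proliferation, 0 were at least 1.5-fold higher or lower, beside the same shares of all genes, and 1 was lower with a 20th percentile floor. There were 8 below 0 and 3 above, where 53.6% of all measured genes were above 0. The median was −0.10, beside 0.03 for all measured genes. For the 11 genes it was −0.20 with chromosome medians subtracted and −0.02 when read from the brightest probe set. With _x_at and _s_at probe sets left out it was −0.01. Mki67 lay at −0.10, Pcna at −0.23 and Top2a at 0.09. The lowest was the replicative helicase gene Mcm2 at −0.52, whose 2 probe sets disagreed, at −1.09 and 0.04.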
